A study of Mus musculus with 44 samples.

Results

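The small leucine-rich proteoglycans studied here are 8 secreted matrix proteins, Dcn (decorin), Bgn (biglycan), Aspn (asporin), Fmod (fibromodulin), Lum (lumican), Prelp, Omd (osteomodulin, also called osteoadherin) and Ogn (osteoglycin, also called mimecan). Every probe set whose annotated gene symbol was one of these 8 was taken, whatever its values, which gave 13 probe sets of 36701 and 8 genes of 15964. Of the 13 probe sets, 9 lay on array type A, 1 on type B (Aspn) and 3 on type C (1 of Bgn and both of Prelp). For a gene with several probe sets, 1 leading probe set stands for the gene, and the others are given beside it in most comparisons.

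Small leucine-rich proteoglycans have a curved core of leucine-rich repeats that binds collagen fibrils and sets their spacing and width, and most carry chondroitin, dermatan or keratan sulfate chains. Decorin and biglycan also bind transforming growth factor beta and other growth factors. In bone, biglycan and decorin lie in the matrix that osteoblasts lay down, and osteoadherin is known as a keratan sulfate proteoglycan of mineralised matrix.

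The samples were primary cultures of calvarial osteoblasts, the bone-forming cells of the skull cap, taken from mice 7 days of age that carried a green fluorescent protein (GFP) transgene under a fragment of the type I collagen promoter. The day 17 cultures carried pOBCol2.3GFP and had been given ascorbic acid with beta-glycerophosphate from day 7 on, and the day 7 cultures carried pOBCol3.6GFP without additions. All cultures were grown in DMEM with fetal calf serum, and the sources used here do not name the mouse strain. Each day had 3 experiments (Exp100, Exp105 and Exp106 at day 17, Exp99, Exp101 and Exp103 at day 7), and each experiment gave RNA of the unsorted culture, of sorted GFP-positive cells and of sorted GFP-negative cells, which makes 18 RNA samples in 6 groups of 3. The reporter marks cells in which the promoter fragment is active, so the GFP-negative fraction holds every cell without it, of whatever type. Day, transgene and additions changed together and cannot be told apart.

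Values are normalised intensities on a linear scale, differences are on the log2 scale with their standard error (SE), and a difference is called where its adjusted p was under 0.05. The sorted samples of Exp106 stood apart: on array A they correlated with the other sorted samples at 0.839 on average, against 0.943 among the others. Values without Exp106 are therefore given wherever leaving it out changed the call of a member's leading probe set. Calls of marker genes and of other genes named below were not checked without Exp106. Of 5 tested osteoblast markers (Col1a1, Col1a2, Alpl, Ibsp and Dmp1), 0 were called between GFP-positive and GFP-negative cells at day 17 by limma, and 3 rose in GFP-positive cells between the days. Ibsp, a sialoprotein of mineralising matrix, lay at day 17 between 57657 and 100227 in GFP-positive cells and between 11864 and 26606 in GFP-negative cells, a difference of 2.25 ± 0.91 (adjusted p = 0.373, with experiment as a block 0.00483). Alpl, the alkaline phosphatase of osteoblasts, overlapped there, with 6589 to 12000 in GFP-positive cells and 4002 to 8677 in GFP-negative cells. At day 7 Ibsp lay between 114 and 1903 in GFP-positive cells and between 37 and 483 in GFP-negative cells, while Col1a1, the type I collagen chain, was at or above 42648 in every sorted sample. The summed level of 8 fibroblast and progenitor markers at day 17 lay between 31102 and 48239 in GFP-positive cells and between 85705 and 125721 in GFP-negative cells. These groups did not overlap, and neither did those of 4 smooth muscle markers (10623 to 11756 in GFP-positive cells, 29331 to 46033 in GFP-negative cells), nor those of 4 adipocyte markers (1008 to 2169 in GFP-positive cells, 4062 to 7705 in GFP-negative cells). Those of 10 macrophage markers did (19340 to 74533 in GFP-positive cells, 60058 to 94966 in GFP-negative cells). Sums of 6 osteoblast markers lay higher in GFP-positive cells (323005 to 372968) than in GFP-negative cells (260850 to 278211), without overlap. Sums of 6 skeletal muscle markers lay lower (5748 to 6114 in GFP-positive cells, 6835 to 7222 in GFP-negative cells), also without overlap. The leading probe sets of Dcn, Bgn and Lum ranked between 16 and 170 of the 12422 probe sets on every A array, and whether signals so bright still follow the RNA in proportion was not tested.

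Most members sit beside one another in the mouse genome. Aspn, Omd and Ogn are consecutive protein-coding genes on chromosome 13, with Ecm2, another leucine-rich repeat gene, on the other side of Aspn. Prelp and Fmod adjoin each other and Optc on chromosome 1, Dcn and Lum adjoin each other and Kera on chromosome 10, and Bgn lies apart on the X chromosome. The promoter windows of 5 members are shown because the day 17 differences between sorted cells had opposite signs in neighbouring genes (Omd, called only with experiment as a block, against Aspn and Ogn) or the same sign (Prelp and Fmod). Each window runs from 250 bases before to 50 bases after the start of the gene, 5′ to 3′ on the gene's strand, from RefSeq on build GRCm38.p6. Capitals mark 3 motifs found on either strand, the TATA box (TATAAA), the E-box (CANNTG) and the RUNX core (TGTGGT). The windows lie at chr13:49544193-49544492 on the plus strand (Aspn), chr13:49582212-49582511 on the plus strand (Omd), chr13:49607765-49608064 on the plus strand (Ogn), chr1:134037004-134037303 on the plus strand (Fmod) and chr1:133921352-133921651 on the minus strand (Prelp).
Aspn: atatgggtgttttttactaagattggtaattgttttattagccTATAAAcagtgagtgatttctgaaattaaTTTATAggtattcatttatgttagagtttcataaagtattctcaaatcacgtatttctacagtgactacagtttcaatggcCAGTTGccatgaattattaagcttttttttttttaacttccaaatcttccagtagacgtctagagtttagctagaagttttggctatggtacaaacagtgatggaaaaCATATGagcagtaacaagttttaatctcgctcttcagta
Omd: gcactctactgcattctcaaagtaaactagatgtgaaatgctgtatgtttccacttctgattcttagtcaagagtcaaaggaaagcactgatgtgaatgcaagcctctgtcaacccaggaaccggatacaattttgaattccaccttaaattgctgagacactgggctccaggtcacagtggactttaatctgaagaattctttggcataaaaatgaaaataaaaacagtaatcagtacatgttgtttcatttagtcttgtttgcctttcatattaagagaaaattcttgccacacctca
Ogn: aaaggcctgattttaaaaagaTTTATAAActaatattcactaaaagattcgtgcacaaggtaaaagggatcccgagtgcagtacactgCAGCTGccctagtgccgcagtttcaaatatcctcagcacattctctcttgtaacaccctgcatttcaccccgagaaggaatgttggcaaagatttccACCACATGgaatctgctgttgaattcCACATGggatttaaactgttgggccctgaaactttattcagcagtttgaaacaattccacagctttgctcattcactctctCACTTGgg
Fmod: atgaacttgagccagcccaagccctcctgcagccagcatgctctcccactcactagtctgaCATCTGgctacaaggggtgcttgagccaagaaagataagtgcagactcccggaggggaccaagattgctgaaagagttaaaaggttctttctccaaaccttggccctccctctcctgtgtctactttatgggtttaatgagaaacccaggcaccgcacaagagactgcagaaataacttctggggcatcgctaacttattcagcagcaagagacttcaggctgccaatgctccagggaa
Prelp: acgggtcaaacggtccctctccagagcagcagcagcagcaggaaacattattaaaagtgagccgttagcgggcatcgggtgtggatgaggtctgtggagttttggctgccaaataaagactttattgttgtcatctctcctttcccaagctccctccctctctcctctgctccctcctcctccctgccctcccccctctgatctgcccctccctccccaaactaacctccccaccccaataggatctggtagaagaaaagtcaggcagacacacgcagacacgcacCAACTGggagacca

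Of the 3 neighbours on chromosome 13, the windows of Aspn and Ogn both held matches to the TATA box letters and to the E-box, and that of Omd held neither. The TATA box matches began at -207 and -178 from the start site in Aspn and at -229 and -227 in Ogn. Whether any of these matches is used was not tested. The Ogn window held 4 E-boxes, a TATA box read on both strands at overlapping positions, and 1 RUNX core that overlaps an E-box. The Aspn window held 2 TATA boxes and 2 E-boxes, and the Fmod and Prelp windows 1 E-box each. The Omd window held 0 matches to these motifs, and also none to a CCAAT box (CCAAT), an AP-1 site (TGANTCA), a homeodomain site (TAATTA) or a GC box (GGGCGG), which says only that these letters are not in this window. Of the 32851 windows in the RefSeq table, 72.3% held an E-box, 13.6% a TATA box and 16.8% a RUNX core. A CCAAT box was in 37.4%, a GC box in 35.7%, an AP-1 site in 7.81% and a homeodomain site in 5.29%. Of the 6 members with a window, 0 held an AP-1 site and 0 a homeodomain site. Start sites of Aspn and Omd lie 38.0 kb apart and those of Omd and Ogn 25.6 kb apart.

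At day 17, GFP-positive cells carried far less Aspn, Ogn and Fmod RNA than GFP-negative cells of the same culture. Prelp was lower too, but was called on only 1 probe set, which was not its leading one. Omd was the 1 member whose estimate lay the other way. Of the 12 member probe sets tested, 5 were called, all lower in GFP-positive cells, against 1.48% of all 22099 probe sets called in either direction and 1.13% called lower. The median difference of the 8 leading probe sets was -1.09, against -0.01 over all probe sets tested. With experiment as a replicate block 7 were called, 6 lower and 1 higher, against 5.03% of all probe sets. The groups of 8 of the 12 did not overlap, against 12.7% of all probe sets. In bulk RNA, fewer cells that express a gene and less RNA per cell cannot be told apart.

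In the decorin class (Dcn, Bgn and Aspn) only Aspn was called. Aspn, which competes with decorin for its collagen site, had 4399, 5128 and 2548 in GFP-positive cells of Exp100, Exp105 and Exp106, against 24664, 25769 and 28424 in their GFP-negative cells. All 3 GFP-positive values lay far below all GFP-negative ones, and the GFP-negative values were close together. The difference was -2.75 ± 0.45 (SE, n = 3 each, adjusted p = 0.00818), which is 6.75-fold lower. Dcn had 48170, 37485 and 71772 in GFP-positive cells, against 66885, 58026 and 78083 in GFP-negative cells. It was lower in the GFP-positive cells of each experiment, but Exp106 was high in both fractions, so the groups overlapped and the difference of -0.41 ± 0.21 was not called (adjusted p = 0.549). The leading probe set of Bgn had 29553, 39914 and 46810 in GFP-positive cells, against 55506, 56897 and 53809 in GFP-negative cells. These groups did not overlap, yet the difference of -0.54 ± 0.27 was not called (adjusted p = 0.519), and the other probe sets of Bgn gave -0.20 ± 0.41 and -0.29 ± 0.45 with overlapping groups.

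In the fibromodulin class Fmod and 1 probe set of Prelp were called. Fmod, which binds type I collagen and takes part in its crosslinking, had 8985, 8029 and 6364 in GFP-positive cells, against 28164, 29382 and 18727 in GFP-negative cells. Every GFP-positive value lay below every GFP-negative one, and the difference was -1.69 ± 0.25 (adjusted p = 0.00531), or 3.22-fold. A further Fmod probe set lay between 21 and 119 in all 18 samples, too dim to be tested, and adds nothing. Prelp, a basic member thought to anchor basement membranes to the underlying matrix, had 6185, 6651 and 3941 in GFP-positive cells, against 25338, 18005 and 9530 in GFP-negative cells on its leading probe set. The groups did not overlap, but the GFP-negative values spanned 2.66-fold and the difference of -1.58 ± 0.42 missed the threshold (adjusted p = 0.0812). It passed with the replicate block (adjusted p = 0.00488), without Exp106 (-1.65 ± 0.39, adjusted p = 0.0283) and without the GFP-negative sample of Exp106 (-1.93, adjusted p = 0.0275). On the second Prelp probe set the values were 1290, 877 and 1821 in GFP-positive cells, against 14183, 9133 and 5085 in GFP-negative cells, and the difference of -2.74 ± 0.57 was called (adjusted p = 0.0221).

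Lum, a keratan sulfate proteoglycan of many connective tissues, was not called. It had 45519, 46346 and 40683 in GFP-positive cells, against 63003, 56236 and 86114 in GFP-negative cells. The groups did not overlap, but the difference of -0.61 ± 0.19 was short of the threshold (adjusted p = 0.18). It passed with experiment as a random replicate block (adjusted p = 0.0202), but not with the fixed one, and without Exp106 it was -0.39 ± 0.17 (adjusted p = 0.287).

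Ogn, the only member here of its own class, was measured by a pair of probe sets that agreed closely. On the leading one it had 7229, 7544 and 3482 in GFP-positive cells, against 36394, 30678 and 30510 in GFP-negative cells. On the other it had 4516, 5504 and 4017 in GFP-positive cells, against 28634, 25927 and 17587 in GFP-negative cells. Neither pair of groups came near to overlap. The differences were -2.49 ± 0.31 (adjusted p = 0.0018, 5.61-fold lower) and -2.34 ± 0.32 (adjusted p = 0.00303, 5.05-fold lower).

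Omd had 8114, 7598 and 1622 in GFP-positive cells of Exp100, Exp105 and Exp106, against 2383, 3811 and 736 in their GFP-negative cells. Within each experiment the GFP-positive cells were higher, by 1.75, 0.99 and 1.11 on the log2 scale, but Exp106 was low in both fractions and the groups overlapped. The difference of 1.28 ± 0.77 was not called without the block (adjusted p = 0.646), and with experiment as a replicate block its SE was 0.27 and it was called (adjusted p = 0.0304). Without Exp106 it was 1.36 ± 0.63 (adjusted p = 0.304), and 1.36 ± 0.31 with the block (adjusted p = 0.0259). Single samples moved it, to 2.03 without GFP-positive Exp106 and 0.62 without GFP-negative Exp106, neither of them called. Without Exp106 the calls for Aspn (-2.28 ± 0.49, adjusted p = 0.0229), Fmod (-1.78 ± 0.23, adjusted p = 0.00161) and Ogn (-2.20 ± 0.27, adjusted p = 0.00128) held. Fitted on the 6 day 17 sorted samples alone, Fmod (adjusted p = 0.0746) and the leading Ogn probe set (adjusted p = 0.0576) missed the threshold, and 2 member probe sets were called. The fibroblast and progenitor, smooth muscle and adipocyte marker sums given above moved the same way as Aspn, Ogn, Fmod and Prelp. The skeletal muscle sum was lower too, but the median difference of its 5 tested markers was 0.03 and 0 were called. The macrophage sums overlapped, and 0 of the 8 tested macrophage markers were called (median -1.47). The osteoblast marker sum moved the same way as Omd. The part of these markers in the differences was not tested.

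**Figure D1:**
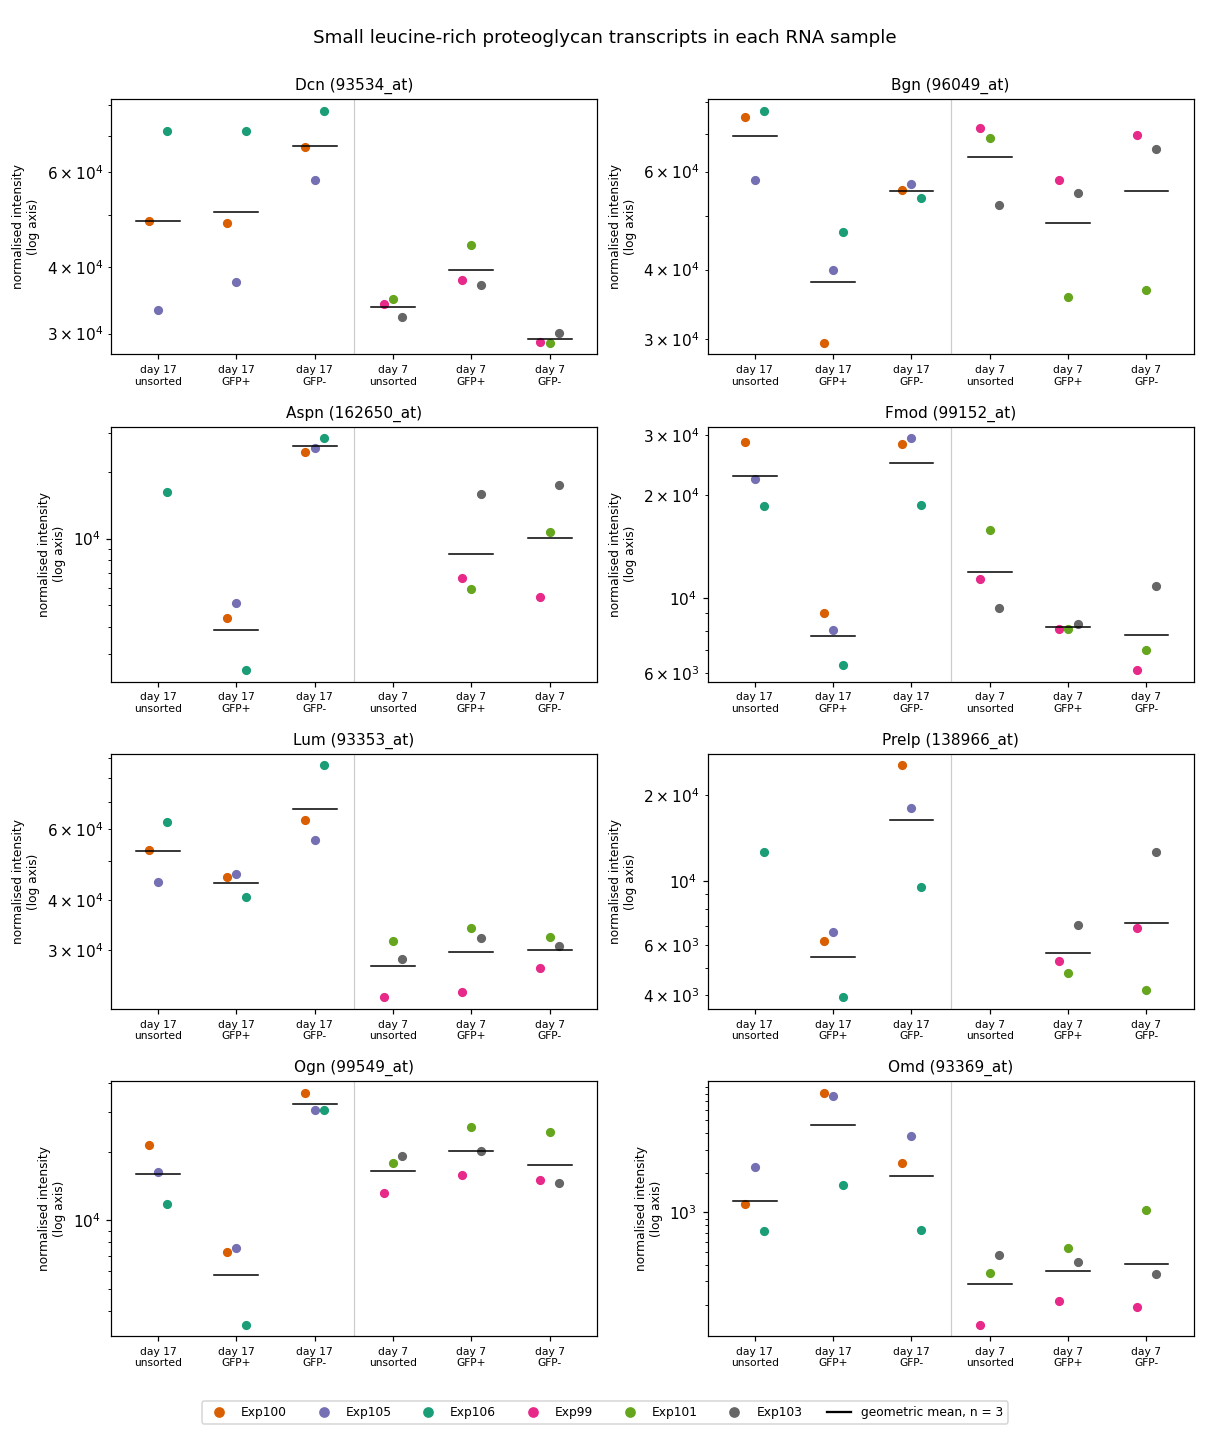
Normalised intensity of the leading probe set of each member in every RNA sample (1 point each, log axes that differ between panels), by day and fraction, with the geometric mean of 3 samples as a bar. At day 17 Aspn, Ogn, Fmod and Prelp lie lower in GFP-positive than in GFP-negative cells, Omd lies higher within each experiment, and the single unsorted points of Aspn and Prelp are from Exp106.

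At day 7, by contrast, 0 of 12 member probe sets were called between GFP-positive and GFP-negative cells, as were 0 of all 22099 (0%), of which 327 had an unadjusted p under 0.05. Ogn had 15824, 25665 and 20159 in GFP-positive cells of Exp99, Exp101 and Exp103, against 15100, 24342 and 14631 in GFP-negative cells, a difference of 0.20 ± 0.31. Aspn had 6609, 5937 and 15951 in GFP-positive cells, against 5470, 10765 and 17402 in GFP-negative cells, a difference of -0.24 ± 0.45. Both genes overlapped widely between the fractions and varied between experiments, Aspn being high in both fractions of Exp103. Fmod differed by 0.08 ± 0.25, Lum by -0.02 ± 0.19, Omd by -0.17 ± 0.77 and the leading probe sets of Bgn and Prelp by -0.19 ± 0.27 and -0.34 ± 0.42. The fractions of 1 of the 12 did not overlap, against 6.9% of all probe sets. That was Dcn, with 37817, 43832 and 37015 in GFP-positive cells, against 28999, 28843 and 30021 in GFP-negative cells. Its difference of 0.43 ± 0.21 was not called (adjusted p = 1). The adjusted p was also 1 for every other member.

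The test of whether the GFP difference itself changed between the days called Ogn. Of the 12 member probe sets 2 were called, both of Ogn, against 0.253% of all probe sets, and with the replicate block 4, against 1.14%. The change, day 17 minus day 7, was -2.69 ± 0.44 (adjusted p = 0.0325) and -2.55 ± 0.45 (adjusted p = 0.0488) on the probe sets of Ogn. It was -1.77 ± 0.35 for Fmod (adjusted p = 0.078, with the block 0.0101) and -2.52 ± 0.63 for Aspn (adjusted p = 0.207, with the block 0.0203). For Dcn, which lay on opposite sides on the days, it was -0.84 ± 0.30 (adjusted p = 0.595, with the fixed block 0.0609 and with a random one 0.0422), and for Omd 1.45 ± 1.09 (adjusted p = 1). The Ogn call on the leading probe set was lost when any 1 of 10 of the 12 sorted samples was left out, all but the GFP-positive samples of Exp105 and Exp106, with adjusted p between 0.0501 and 0.118 and estimates between -2.92 and -2.51. Without the whole of Exp106, Ogn (-2.41 ± 0.35, adjusted p = 0.00894), Fmod (-1.86 ± 0.29, adjusted p = 0.0121) and Dcn (-1.01 ± 0.19, adjusted p = 0.0254) were called. Dcn was also called without the GFP-positive sample of Exp106 alone (adjusted p = 0.0496), and Fmod without its GFP-negative sample (adjusted p = 0.0442).

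**Figure D2:**
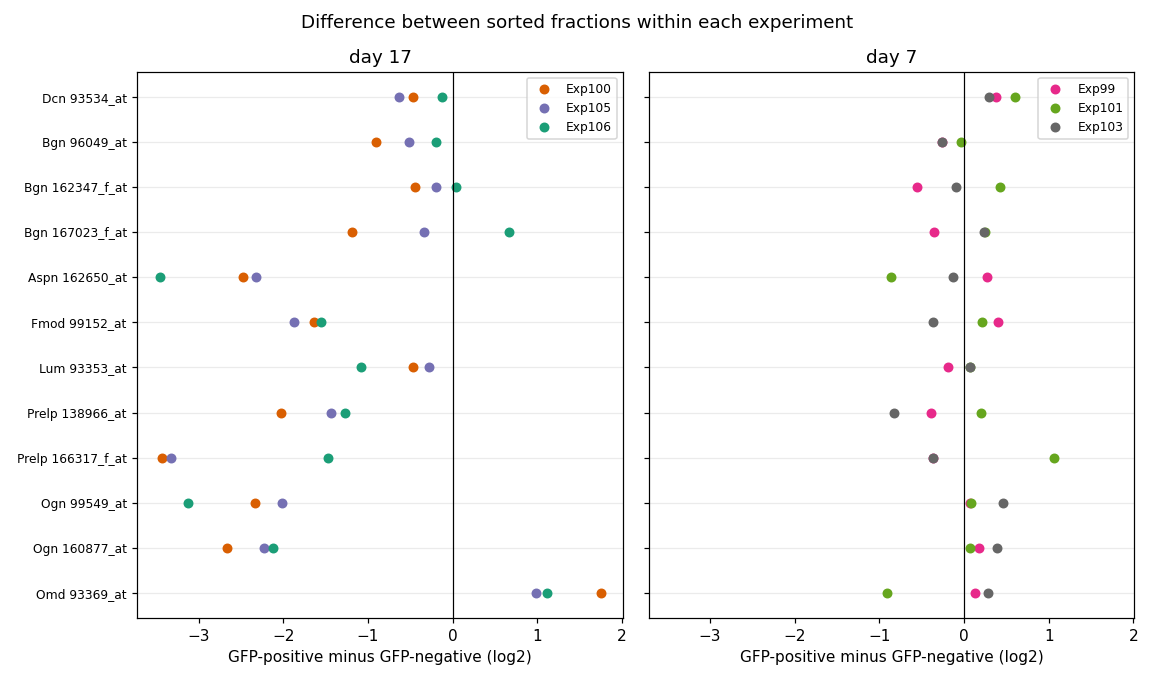
Log2 difference between GFP-positive and GFP-negative cells of the same experiment for the 12 tested member probe sets, day 17 on the left and day 7 on the right, 1 point per experiment. At day 17 both Ogn probe sets lie below -2 in every experiment and Omd above 0, while at day 7 the Ogn points lie at or slightly above 0.

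Set against day 7, day 17 GFP-positive cells had more Omd and less Ogn. Of 12 member probe sets 3 were called, against 5.45% of all probe sets, and 5 did not overlap, against 26% of all. Omd had 8114, 7598 and 1622 at day 17, against 211, 539 and 419 at day 7. The groups did not overlap although Exp106 was the lowest at day 17, and Omd rose by 3.56 ± 0.77 on the log2 scale (adjusted p = 0.0201), or 11.8-fold. Its day 7 values were dim, ranking 8499, 6340 and 6970 of 12422 probe sets in Exp99, Exp101 and Exp103, all below the array median. The size of this fold therefore rests on dim day 7 values. Ogn fell to 7229, 7544 and 3482 at day 17, against 15824, 25665 and 20159 at day 7, a difference of -1.80 ± 0.31 (adjusted p = 0.0062), and its second probe set gave -1.74 ± 0.32 (adjusted p = 0.00868). Aspn, which adjoins Omd on chromosome 13, had 4399, 5128 and 2548 at day 17, against 6609, 5937 and 15951 at day 7. Its groups did not overlap, but day 7 spanned 2.69-fold and the difference of -1.14 ± 0.45 was not called (adjusted p = 0.179). Fmod (-0.08 ± 0.25) and the leading probe set of Prelp (-0.05 ± 0.42) gave estimates near 0, and those of Dcn and Bgn were 0.36 ± 0.21 (0.11 ± 0.13 without Exp106) and -0.35 ± 0.27. The second Prelp probe set gave -0.80 ± 0.57, and the other probe sets of Bgn 0.47 ± 0.41 and -0.75 ± 0.45, none of them called.

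The Omd call was lost on leaving out GFP-positive Exp100 (3.15, adjusted p = 0.0725), Exp105 (3.20, adjusted p = 0.073), Exp99 (3.20, adjusted p = 0.0925) or Exp103 (3.65, adjusted p = 0.061), and without Exp106 it was 4.36 ± 0.57 (adjusted p = 0.000679). Ogn passed in all 15 alternatives, with no estimate nearer 0 than -1.45. Lum, at 0.58 ± 0.19 (adjusted p = 0.11), had higher values at day 17 without overlap and passed without Exp106 (0.65 ± 0.16, adjusted p = 0.0209). Marker lists moved in the same comparison. Of 8 tested macrophage markers 5 rose, and their sums lay between 19340 and 74533 at day 17 and between 5256 and 5856 at day 7. All 3 tested smooth muscle markers fell (sums of 10623 to 11756 at day 17, 51392 to 56986 at day 7), as did 3 of 8 fibroblast and progenitor markers, whose sums overlapped (31102 to 48239 at day 17, 36917 to 59927 at day 7). Of 5 tested osteoblast markers 3 rose, and the osteoblast sums lay higher (323005 to 372968 at day 17, 97216 to 164710 at day 7). Skeletal muscle sums lay lower (5748 to 6114 at day 17, 7300 to 10077 at day 7). The part of these markers in the changes of Omd and Ogn was not tested.

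In GFP-negative cells the day 17 values were higher for most members, and Dcn, Lum and Fmod were called. That was 3 of 12 member probe sets, all higher, against 0.538% of all probe sets, and the median of the leading ones was 1.19, against -0.04 over all tested. Dcn had 66885, 58026 and 78083 at day 17, against 28999, 28843 and 30021 at day 7, and rose by 1.20 ± 0.21 (adjusted p = 0.0367). Lum had 63003, 56236 and 86114 at day 17, against 26998, 32409 and 30678 at day 7, and rose by 1.17 ± 0.19 (adjusted p = 0.0245). Fmod had 28164, 29382 and 18727 at day 17, against 6130, 7002 and 10833 at day 7, and rose by 1.68 ± 0.25 (adjusted p = 0.0165). None of the 3 overlapped between the days, and each rise was between 2.25-fold and 3.21-fold. In all, 6 of the 12 member probe sets did not overlap, against 20.5% of all probe sets. Aspn (1.38 ± 0.45), Ogn (0.89 ± 0.31), Omd (2.11 ± 0.77) and Prelp (1.19 ± 0.42 and 2.04 ± 0.57) had positive estimates that were not called, with adjusted p from 0.148 to 0.318. The leading probe set of Bgn gave 0.00 ± 0.27, with 55506, 56897 and 53809 at day 17 and 69684, 36816 and 65966 at day 7, where Exp101 was low. The other probe sets of Bgn gave 0.59 ± 0.41 and -0.41 ± 0.45, neither of them called.

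These calls depended on single samples. Dcn lost its call when any 1 of the 6 GFP-negative samples was left out (adjusted p 0.0672 to 0.166). Lum lost it without Exp100 (0.0708), Exp99 (0.138), Exp101 (0.0795) or Exp103 (0.0982), and Fmod without Exp100 (0.0708), Exp105 (0.0672), Exp99 (0.0974) or Exp101 (0.0795), all given as adjusted p. Without Exp106 all 3 were called (adjusted p = 0.00164 for Dcn, 0.00803 for Lum and 0.00108 for Fmod), and so were Omd (2.82 ± 0.57, adjusted p = 0.0279) and Prelp (1.50 ± 0.36, adjusted p = 0.0416). The summed fibroblast and progenitor markers of GFP-negative cells moved the same way, with 85705 to 125721 at day 17 and 34673 to 67432 at day 7, and the macrophage markers likewise (60058 to 94966 at day 17, 11471 to 29473 at day 7). Skeletal muscle markers lay lower (6835 to 7222 at day 17, 12233 to 19236 at day 7), and adipocyte markers higher (4062 to 7705 at day 17, 2035 to 3029 at day 7). Osteoblast markers also lay higher (260850 to 278211 at day 17, 82451 to 209187 at day 7). Their part in these rises was not tested.

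In unsorted cultures Lum and Fmod were called higher at day 17, 2 of the 8 member probe sets tested on array A, against 5.71% of all 7455. Lum had 53257, 44304 and 62174 at day 17, against 22900, 31630 and 28481 at day 7, a rise of 0.94 ± 0.19 (adjusted p = 0.00984). Fmod had 28634, 22319 and 18583 at day 17, against 11360, 15824 and 9338 at day 7, a rise of 0.94 ± 0.26 (adjusted p = 0.042). Neither gene overlapped between the days, but 3 of the 8 member probe sets without overlap stand against 35% of all probe sets. Omd had 1154, 2231 and 723 at day 17, against 141, 345 and 472 at day 7, also without overlap, but the difference of 1.98 ± 0.74 was not called (adjusted p = 0.136) except without Exp106 (2.41 ± 0.61, adjusted p = 0.0195). Ogn, whose day estimates had opposite signs in the sorted fractions, gave -0.05 ± 0.31 in the unsorted cultures. The Lum call was lost without day 7 Exp99 (0.82, adjusted p = 0.0603). The Fmod call was lost without Exp100, Exp105, Exp106, Exp99 or Exp103, with adjusted p from 0.0518 to 0.205, though it was called without all 3 samples of Exp106 (1.10 ± 0.23, adjusted p = 0.00853). Macrophage markers summed to between 129014 and 168559 in unsorted cultures at day 17 and between 15830 and 32845 at day 7. Skeletal muscle markers lay lower (6957 to 8600 at day 17, 12362 to 17656 at day 7). Fibroblast and progenitor markers lay higher at day 17 (86756 to 108734, against 55838 to 69291 at day 7). So did osteoblast markers (319441 to 347278, against 151296 to 217002) and adipocyte markers (4703 to 5463, against 2221 to 2771). Their part in these rises was not tested.

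**Figure D3:**
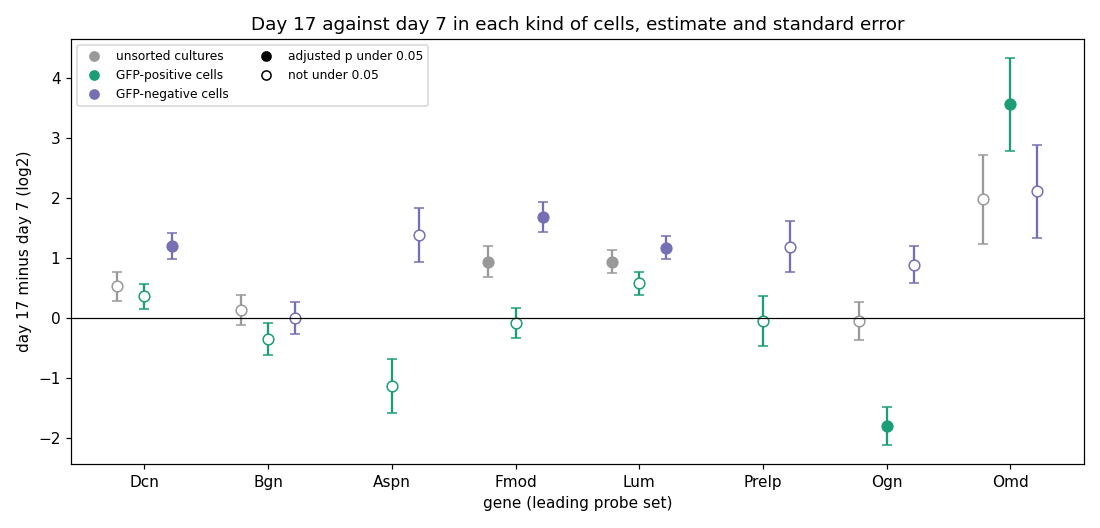
Log2 difference of day 17 minus day 7 for the leading probe set of each member in unsorted cultures, GFP-positive cells and GFP-negative cells, with its standard error as the bar (3 samples a day). Filled points passed an adjusted p of 0.05. Omd lies above 0 in all 3, Ogn and Aspn lie below 0 in GFP-positive cells and above it in GFP-negative cells, and Aspn and Prelp have no unsorted point.

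Unsorted cultures were also set against the mean of their sorted fractions. Of the 8 member probe sets tested, 0 were called at day 7 (limma, as were 0% of all, 59 with an unadjusted p under 0.05) and 0 at day 17 (limma, against 1.6% of all), while 3 were called at day 17 with the replicate block, against 12.3%. At day 17 Omd was lower in the unsorted culture than in either fraction in all 3 experiments, with 1154, 2231 and 723 in unsorted cultures, against 8114, 7598 and 1622 in GFP-positive cells and 2383, 3811 and 736 in GFP-negative cells. The difference from the mean of the fractions was -1.25 ± 0.64 (adjusted p = 0.39), and adjusted p = 0.0164 with the block. Without Exp106 it was -1.59 ± 0.58 (adjusted p = 0.0928), and adjusted p = 0.0122 with the block. In Exp106 the unsorted and GFP-negative values were nearly equal. The leading probe set of Bgn lay above both fractions in all 3 experiments, with 75113, 58026 and 77111 in unsorted cultures. Its difference was 0.60 ± 0.22 (adjusted p = 0.194, with the block 0.0429). The other Bgn probe set on array A gave 0.01 ± 0.34 with overlapping groups (adjusted p = 0.995, with the block 0.967). Fmod gave 0.72 ± 0.22 (adjusted p = 0.123, with the block 0.0196), and its unsorted values were close to those of GFP-negative cells. Without Exp106 the block calls of Bgn (0.60 ± 0.22, adjusted p = 0.0931) and Fmod (0.70 ± 0.23, adjusted p = 0.0628) were lost, and Dcn was called with the block (-0.37 ± 0.10, adjusted p = 0.0377). Ogn lay between its fractions in all 3 experiments, with 21332, 16269 and 11782 in unsorted cultures. Macrophage markers summed to between 129014 and 168559 in the day 17 unsorted cultures, above both fractions, and their part in these differences was not tested.

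Across the 12 sorted samples the leading probe sets of the members fell into patterns that the selection by name did not fix. As a description, the Pearson correlation was 0.89 between Fmod and Prelp, which adjoin on chromosome 1, 0.80 between Dcn and Lum, which adjoin on chromosome 10, and 0.82 between Aspn and Ogn on chromosome 13. Omd, which lies between Aspn and Ogn, correlated with them at -0.09 and -0.28. Among pairs on different chromosomes, Fmod and Aspn correlated at 0.80, Aspn and Prelp at 0.77 and Lum and Fmod at 0.74. All other such pairs were lower, down to Bgn and Omd at -0.60. These samples share days, fractions and experiments, so the values describe those groupings as well. The probe sets of Ogn correlated with each other at 0.97 and those of Prelp at 0.89, but the further probe sets of Bgn correlated with its leading one at only 0.36 and 0.57.

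**Figure D4:**
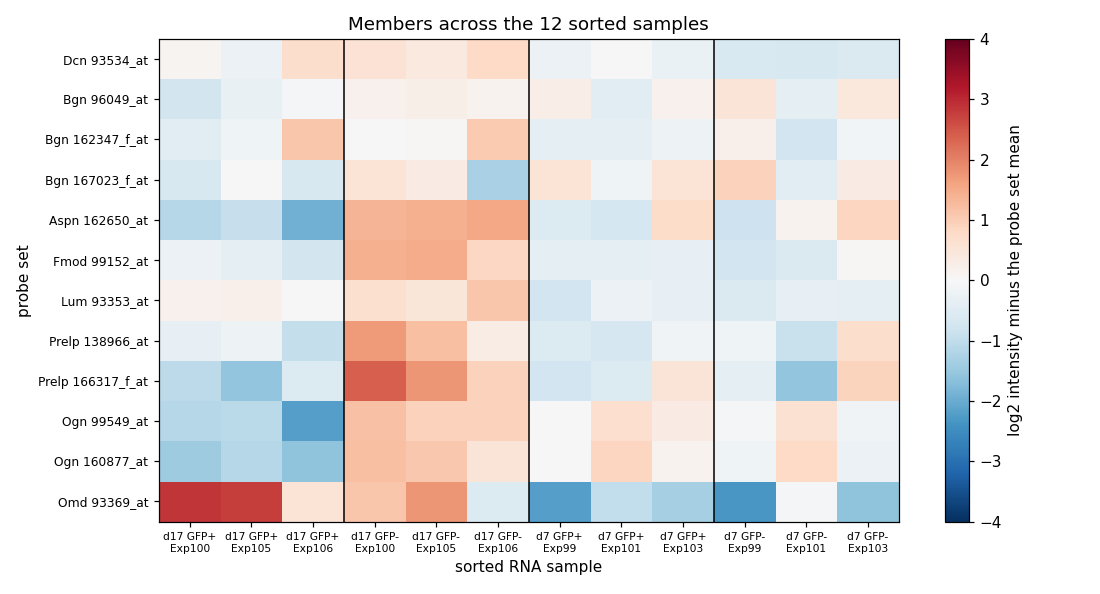
Log2 intensity of the 12 tested member probe sets in each of the 12 sorted samples, as the deviation from the mean of the probe set (red higher, blue lower). Aspn, Fmod and the leading Ogn probe set are highest in the 3 day 17 GFP-negative samples, and Omd is highest in the day 17 GFP-positive samples of Exp100 and Exp105.

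Among 10612 genes, those most like each member over the 12 sorted samples were named by the highest Pearson correlation. Omd was most like Gnai1 (0.977), Erp29 (0.969) and Kazald1 (0.966). Ogn was most like Arhgap28 (0.939), Egfr (0.93) and Tmem37 (0.923), and Fmod most like Gdf10 (0.964), Islr (0.954) and Matn4 (0.927). Aspn was most like Prkab2 (0.927), Ramp2 (0.915) and H2-Bl (0.90), and Prelp most like Mfap4 (0.897), Fmod (0.892) and Dnm1 (0.888). Lum was most like Clec11a (0.948), St3gal4 (0.943) and Srpx (0.932). Dcn was most like Spop (0.936), Recql4 (0.912) and D630004K10Rik (0.91), and Bgn most like Sgta (0.929), Lpp (0.925) and Gfpt2 (0.922). These are the highest of many correlations over few samples.

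Genes that act with the members were described from 6 lists, whose counts stand against 1.48% of all probe sets called between the fractions at day 17 (median -0.01), 5.45% between the days in GFP-positive cells (median -0.06) and 5.71% between the days in unsorted cultures (median -0.09). Of 10 other leucine-rich repeat proteoglycans, 8 were on the arrays and 2 bright enough to test. Podn, which like the members binds collagen, fell by 1.98 on the log2 scale in GFP-positive cells between the days (SE 0.42, adjusted p = 0.0179). Between GFP-positive and GFP-negative cells at day 17 it differed by -1.45 ± 0.42 (adjusted p = 0.15, with the block 0.0374), and Chad was not called by limma in any comparison. Ecm2, the chromosome 13 neighbour of Aspn, was too dim to be tested and lay between 54 and 80 in GFP-positive cells and between 708 and 867 in GFP-negative cells at day 17. Kera lay between 27 and 216 in the sorted samples.

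Of 28 tested genes of sulfated chain synthesis, 2 fell and 0 rose between GFP-positive and GFP-negative cells at day 17, with a median of -0.03. They were Dse, the epimerase that makes the dermatan sulfate found on decorin and biglycan (-1.55 ± 0.30, adjusted p = 0.0218), and B3gnt2, which extends lactosamine chains (-1.87 ± 0.39, adjusted p = 0.0375). In GFP-positive cells between the days, 3 fell and 2 rose with a median of 0.31. The falls were B3gnt2 (-3.10 ± 0.39), B4galt4, a galactosyltransferase of keratan sulfate (-2.01 ± 0.32), and Dse (-1.42 ± 0.30), and the rises were Chst15, a chondroitin sulfotransferase (1.39 ± 0.33), and Chsy1, a chondroitin polymerase (0.98 ± 0.24). B3gnt2 was also called higher in unsorted cultures than in the sorted fractions at day 17 (1.71 ± 0.36, adjusted p = 0.0317), and in the remaining comparisons 0 genes of this list were called.

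Of 22 tested genes of fibril collagens and their assembly, Col11a2, a chain of a fibril-nucleating collagen, was higher in GFP-positive cells at day 17 (4.05 ± 0.52, adjusted p = 0.00221) and Col14a1, a collagen on fibril surfaces, lower (-2.10 ± 0.37, adjusted p = 0.0147), with a median of -0.13. Between the days Col11a2 was called in GFP-positive cells (5.71 ± 0.52) and unsorted cultures (4.13 ± 0.49), and Col11a1 in GFP-positive cells (1.32 ± 0.30). Of 16 tested ligands and receptors that members are reported to bind, Ccn4 was higher (1.43 ± 0.28, adjusted p = 0.0249) and Egfr, a receptor that decorin binds, lower (-2.72 ± 0.37, adjusted p = 0.00302) in GFP-positive cells at day 17, with a median of -0.42. Egfr also fell in GFP-positive cells between the days (-2.11 ± 0.37), and Igf1 rose in unsorted cultures (1.14 ± 0.27).

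Of 6 tested proteases that cut members, Adamts5, an aggrecanase, was lower in GFP-positive cells at day 17 (-3.11 ± 0.53, adjusted p = 0.0105) and fell in them between the days (-3.94 ± 0.53, adjusted p = 0.00116). Bmp1, which removes the propeptides of decorin and biglycan, rose in them between the days (1.11 ± 0.26, adjusted p = 0.0272). Of 12 tested target genes of transforming growth factor beta, Postn was lower in GFP-positive cells at day 17 (-1.15 ± 0.24, adjusted p = 0.039). Between the days in GFP-positive cells 4 fell and 1 rose, with a median of -0.89 against -0.06 over all tested, among them Pmepa1 (-2.50 ± 0.43), Tgfbi (-2.43 ± 0.51), Tgif1 (-2.15 ± 0.34) and, rising, the pseudoreceptor Bambi (3.61 ± 0.72).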

How the data were processed

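The 18 RNA samples were measured on 44 Affymetrix arrays of 3 types (A, B, C), with unsorted RNA on type A only, except in Exp106, whose unsorted B and C arrays entered no fit. The deposited values were linear intensities, 1 per probe set and array, all whole and none below 10, and the sources used here do not say how probes were summarised. Gene symbols came from the platform annotation, which names 1 gene for 29131 probe sets, several for 724 and none for 6846. No member probe set had several genes.

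Intensities were quantile-normalised within array type on log2 of the value plus 32. Testing required a value over the median of its array on 3 or more arrays of the fit, which 12 of the 13 member probe sets had. Each array type was fitted with limma 3.58.1 in R 4.3.3 (group means, eBayes with a variance trend), on the 12 sorted samples, or on the 18 samples of type A where unsorted cells were involved. P-values were adjusted by the Benjamini-Hochberg method over all probe sets of a comparison. The leading probe set was the brightest on array A, or failing that on B, or failing that on C. The fits were run on simulated data drawn independently for each sample, with no effect shared by the fractions of an experiment. That run therefore cannot say how fits with and without the replicate block compare on these samples.

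Experiment names in the titles tie the fractions of 1 culture together, and the fractions' deviations from their group means on array A correlated at 0.47, 0.59 and 0.67 in Exp100, Exp105 and Exp106 and at 0.29, 0.50 and 0.42 in Exp99, Exp101 and Exp103. The fit with experiment as a replicate block is given beside results it changed. Nothing else says that the replicates came from separate animals, so the p-values reflect only how these samples vary, and the number of arrays limits the precision. Within-array-type trimmed means (2%) ranged from 1047 to 1764 on A, 1365 to 1722 on B and 1255 to 1604 on C.

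The members, gene lists and comparisons were chosen with earlier results of these data known. From each gene list the 3 largest changes in each direction among called genes were named, together with values chosen after they were seen (Ecm2, Kera, Ibsp, Alpl and Col1a1). The members' windows matched RefSeq for 6 of 8 members. Alternatives were pseudocounts of 8 and 128, testing every probe set or only those above the 75th percentile, the deposited scale, only the groups compared, no variance trend, fixed and random blocks, each sample left out in turn and Exp106 left out. Leaving out Exp106 together with the block was added after the data had been seen. Over all 18 samples, the following marker lists, summed over array A, lay in these ranges: osteoblast (6 genes) 82451 to 372968, skeletal muscle (6 genes) 5748 to 19236, chondrocyte (3 genes) 219 to 766 and endothelial (4 genes) 356 to 1174.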

Additional observations from a re-analysis of the deposited data

Results flagged for a closer look

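For Ogn the GFP difference changed between the days on both probe sets, by -2.69 on the leading one (adjusted p = 0.0325) and -2.55 on the other (adjusted p = 0.0488), day 17 minus day 7, in a test of that change. In Exp100, Exp105 and Exp106 GFP-positive cells were lower, and in Exp99, Exp101 and Exp103 they were slightly higher.

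For Dcn every experiment at day 17 had less in GFP-positive cells (-0.47, -0.63 and -0.12 on the log2 scale) and every experiment at day 7 had more (0.38, 0.60 and 0.30). The change of -0.84 did not pass its test (adjusted p = 0.595, with the fixed replicate block 0.0609), but passed with a random block (adjusted p = 0.0422) and without Exp106 (-1.01, adjusted p = 0.0254).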

How the results depend on the processing

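Directions of called results did not change in any alternative run. Of 58 results of a gene in a comparison, 11 were called. Of these, 2 passed in every alternative, Aspn in GFP-positive against GFP-negative cells at day 17 and Ogn between the days in GFP-positive cells. Of the others, 31 passed in none. Counts of member probe sets called moved as follows. For GFP-positive against GFP-negative cells at day 17 (5 called) the count was 2 with only the groups compared and 9 without Exp106 and with the replicate block. There Dcn (-0.57 ± 0.10, adjusted p = 0.00962) and Bgn (-0.73 ± 0.11, adjusted p = 0.00471) were called too. For the change of that difference (2 called) it was 1 with a pseudocount of 8, no filter or no variance trend, 4 without Exp106 or with the fixed replicate block, 5 with the random one, 6 without Exp106 and with the fixed one, and 0 to 2 on leaving out 1 sample. For the days in GFP-negative cells (3 called) it was 1 with only the groups compared or no variance trend, 5 without Exp106, and 0 to 2 on leaving out 1 sample. For the days in unsorted cultures (2 called) it was 1 with no filter, no variance trend or the random replicate block, 0 with only the groups compared, and 0 to 2 on leaving out 1 sample. For unsorted against sorted cells at day 17 (0 called by limma) it was 3 with either block and 2 without Exp106 and with the block. The causes were not tested. Each group holds 3 samples, and day 17 groups hold 2 without Exp106. Aspn and Prelp were on array types that unsorted RNA of only 1 experiment had been put on, so they have no unsorted comparison.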

Other observations

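Unsorted RNA of Exp106 was also measured on array types B and C, and these values belong to no comparison. Aspn had 16238 in the unsorted culture of Exp106, against 2548 in its GFP-positive cells and 28424 in its GFP-negative cells, so it lay between the fractions. Prelp had 12650 on its leading probe set in the unsorted culture, against 3941 in GFP-positive cells and 9530 in GFP-negative cells, so it lay above both, and so did its second probe set (6561 in the unsorted culture, against 1821 in GFP-positive cells and 5085 in GFP-negative cells). The array C probe set of Bgn had 44837 in the unsorted culture, against 62593 in GFP-positive cells and 39266 in GFP-negative cells. These are single samples with no replicate.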
